A study of Mus musculus with 12 samples.

Results

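The genes described here are 10 markers of haematopoietic stem cells, Procr, Tek, Slamf1, Robo4, Cd34, Emcn, Esam, Fgd5, Hlf and Mecom, out of 22180 genes measured on 12 arrays. They were taken from a named list, and each is represented by the brightest probe set that carries its symbol alone. The RNA came from LSK cells, the bone marrow fraction sorted by flow cytometry for absence of lineage markers and presence of Sca1 and Kit. The mice were C57BL/6, either wild type (Mll5+/+) or Mll5-/-, which lack the chromatin regulator gene now called Kmt2e, and were bred from Mll5+/- parents. The mock groups went without N-Acetyl-L-Cysteine (NAC), an antioxidant. In the NAC groups the water held 1 g per liter of it from parental mating onward, so these mice were exposed before birth and throughout life. Each of the 4 groups had 3 arrays, and the labels give neither the animals' age nor whether each array stands for its own mouse. The p-values therefore measure a spread between samples that may be technical.

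Haematopoietic stem cells make up a small share of the LSK fraction. The rest is multipotent and lineage-primed progenitors, which lose most of these markers as they differentiate. Of the genes, 4 encode receptors, namely Procr (the endothelial protein C receptor), Tek (the angiopoietin receptor), Slamf1 (a self-binding receptor used to sort stem cells) and Robo4 (a roundabout receptor). Cd34 and Emcn encode sialomucins, heavily glycosylated proteins of the cell surface, and Esam encodes an adhesion molecule of cell junctions. Fgd5 encodes an exchange factor for the GTPase Cdc42, while Hlf and Mecom encode transcription factors that maintain stem cells. Many of these genes are also used by endothelial cells. Cd34 differs from the others in that adult mouse stem cells carry little of it and progenitors more. In such a mixture, fewer cells of a type and less RNA per cell cannot be told apart.

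All 10 genes had a mean above 3.17, the median log2 signal of all genes, but Slamf1 (3.37), Tek (3.58), Fgd5 (3.75) and Esam (3.82) lay within 0.65 of it, where a signal is hard to separate from background. Array medians lay between 2.89 and 2.96, with correlations between arrays of 0.976 to 0.988 over genes. Limma's array weights were lowest for mutant NAC replicate 1 (0.541) and wild-type mock replicate 1 (0.71), against 0.87 to 1.35 for the others. Kmt2e, the targeted gene, gave log2 signals of 7.49, 7.39 and 7.68 in wild-type mock, 7.51, 7.38 and 6.93 in mutant mock, 7.37, 7.78 and 7.50 in wild-type NAC and 7.02, 7.33 and 7.01 in mutant NAC arrays. In mock these values overlap between genotypes, while in NAC every mutant array lay below every wild-type array, beside 6.05% of all genes. The means were lower in the mutant, 7.27 against 7.52 in mock and 7.12 against 7.55 in NAC. Since the part of the gene that the probe set reads is not given, the values do not check the genotype labels. Kit, part of the sort, had a mean of 9.05, while no probe set is assigned to Ly6a (Sca1) alone. The T cell gene Cd3e (2.23) and the neutrophil gene Ly6g (2.01) lay under the median of all genes, while the myeloid genes Itgam (5.69) and Mpo (11.4) did not. Of 14 endothelial genes, 9 lay under it, among them Cdh5 (2.88) and Kdr (2.32). The other 5 lay above it: Pecam1 (6.97), Egfl7 (5.68), Tie1 (5.45), Vwf (3.36) and Plvap (3.30).

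The sequences upstream of 6 of the genes are shown, chosen by results given below. Cd34, Emcn, Hlf and Mecom were lower in every mutant NAC array than in every mutant mock array. Procr and Fgd5 had higher mean signals in mutant than in wild-type cells over both treatments. So had Tek, Esam, Slamf1 and Robo4, whose sequences are not shown, and no marker passed limma's test. The choice does not divide the genes, as Procr also had a lower mean with NAC in the mutant (-0.50). RefSeq promoters (GRCm38.p6) were found for 9 of the 10 genes, all but Esam, and Mecom has 2. Each sequence runs 5′ to 3′ on the gene's strand and stops before the first annotated base of the gene. The stretches are chr3:137340828-137341061 (plus strand) for Emcn, chr11:90390918-90391167 (minus) for Hlf, chr1:194938571-194938820 (plus) for Cd34, chr3:30509760-30510009 (minus) for Mecom, chr2:155750967-155751124 (plus) for Procr and chr6:91978715-91978826 (plus) for Fgd5. Capitals mark GGAAG, the core of ETS factor sites, and GATAA, the core of GATA factor sites, on either strand (as CTTCC and TTATC in reverse), and no 2 matches overlap.
Emcn: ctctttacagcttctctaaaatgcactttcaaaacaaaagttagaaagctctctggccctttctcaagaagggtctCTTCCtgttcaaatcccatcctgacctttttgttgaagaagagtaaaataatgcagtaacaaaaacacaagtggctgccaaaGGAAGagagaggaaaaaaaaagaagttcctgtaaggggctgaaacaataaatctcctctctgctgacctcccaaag
Hlf: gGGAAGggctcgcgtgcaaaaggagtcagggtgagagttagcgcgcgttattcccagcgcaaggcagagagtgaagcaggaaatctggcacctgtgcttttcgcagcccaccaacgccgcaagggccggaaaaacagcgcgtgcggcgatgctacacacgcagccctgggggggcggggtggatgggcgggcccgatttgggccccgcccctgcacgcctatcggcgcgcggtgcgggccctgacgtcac
Cd34: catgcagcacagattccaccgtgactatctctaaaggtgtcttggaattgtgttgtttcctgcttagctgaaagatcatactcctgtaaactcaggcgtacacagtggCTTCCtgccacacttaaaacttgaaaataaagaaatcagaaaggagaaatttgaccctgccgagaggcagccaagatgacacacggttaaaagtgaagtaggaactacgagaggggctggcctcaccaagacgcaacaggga
Mecom: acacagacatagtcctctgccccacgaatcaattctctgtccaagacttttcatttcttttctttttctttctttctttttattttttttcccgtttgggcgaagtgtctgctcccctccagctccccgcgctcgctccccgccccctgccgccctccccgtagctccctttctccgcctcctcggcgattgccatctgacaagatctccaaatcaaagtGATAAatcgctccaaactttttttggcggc
Procr: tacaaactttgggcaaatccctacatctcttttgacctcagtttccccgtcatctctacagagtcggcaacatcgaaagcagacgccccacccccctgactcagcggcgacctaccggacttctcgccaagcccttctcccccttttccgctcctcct
Fgd5: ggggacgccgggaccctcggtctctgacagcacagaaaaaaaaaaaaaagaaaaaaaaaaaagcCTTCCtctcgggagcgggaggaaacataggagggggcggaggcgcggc
Motifs were counted over the 250 bases before the start site of each promoter entry. In Procr, Robo4, Fgd5, Emcn, Slamf1, Tek and 1 of the 2 Mecom entries, some or all of these bases lie past the gene's first annotated base. The counts can therefore include matches that the printed stretches leave out, as in Procr, and matches within the gene. GGAAG was found in 8 of the 10 promoter entries and in 64.1% of all 32851. GATAA was found in 3 of 10, those of Slamf1 and Mecom, and in 22.6% of all. CANNTG, the E-box, was found in 7 of 10 and in 66.2% of all, and TGTGGT, a core of RUNX sites, in 0 of 10 and in 14% of all. Base composition differed widely: the window was 40.8% G and C in Emcn, with 1 CpG, and 71.6% in Fgd5, with 31 CpG, against a median of 52.4% over all promoters. Hlf was at 67.2% and Procr at 61.6%, while Cd34 was at 46.4%. The printed stretches hold 2 GGAAG matches in Emcn, 1 each in Hlf, Cd34 and Fgd5 and none in Procr, and 1 GATAA match in Mecom. These matches describe the letters only.

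**Figure D1:**
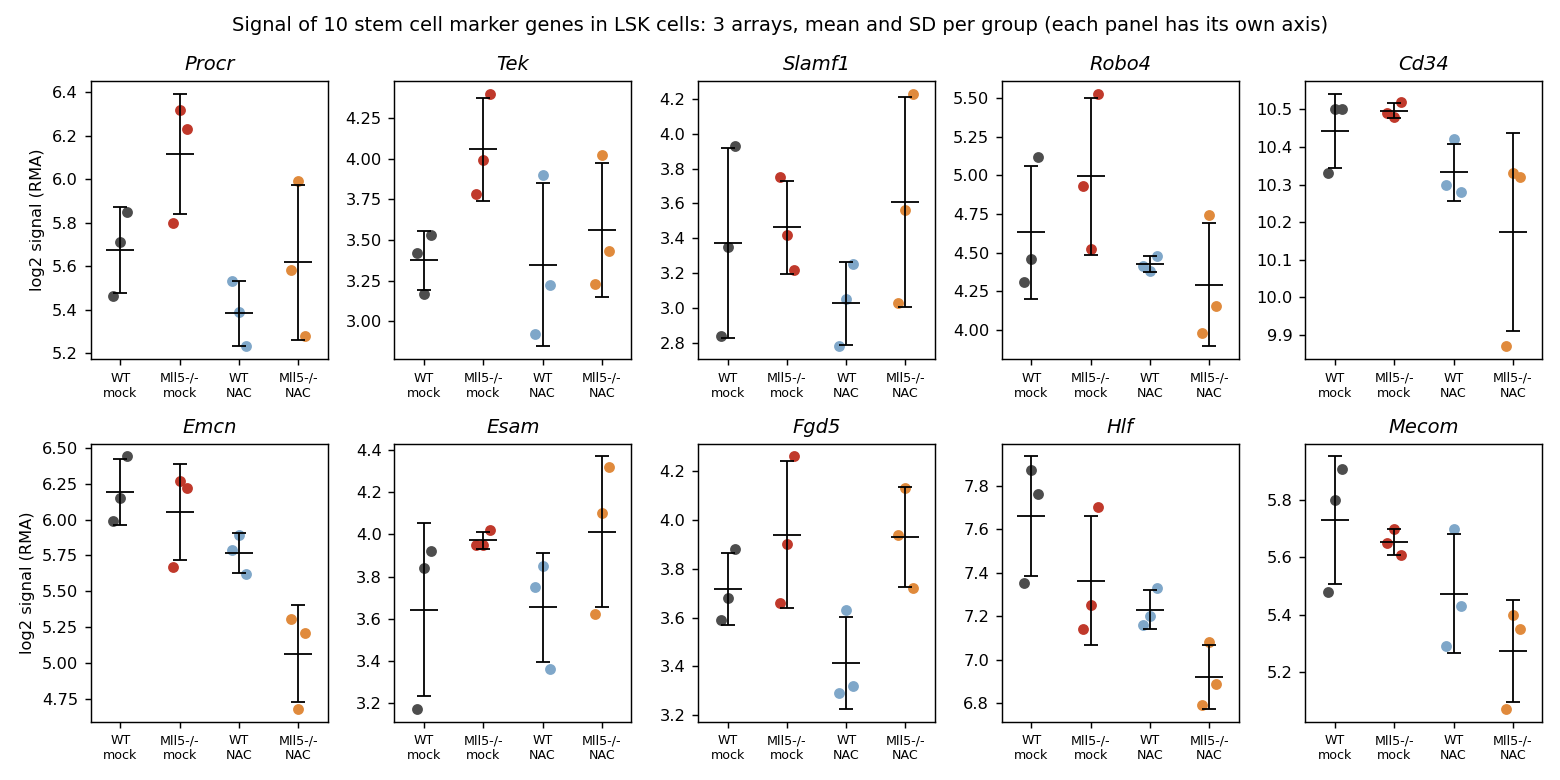
Log2 signal (RMA, vertical axis, a separate scale for each gene) of the 10 stem cell markers on each of 3 arrays in the 4 groups, with the mean (long bar) and SD (whiskers). Emcn and Hlf are lowest in mutant NAC arrays, Procr and Tek have their highest means in mutant mock arrays, and the groups of Slamf1 overlap throughout.

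Between NAC and mock, the marker signals were mostly lower in NAC, in both genotypes. The comparison asked what long-term treatment with the quencher changes in cells with and without Mll5. In the mutant, 8 of 10 genes were lower with NAC and the median log2 difference of the 10 was -0.41, against 0.00 over all genes. In wild type, 9 of 10 were lower with a median of -0.27, against -0.003 over all genes. Emcn had the largest difference in the mutant, followed by Robo4, and Emcn and Hlf had the largest in wild type. None of the 10 passed limma's test at an adjusted p under 0.05 in either genotype, where 0.00451% of all 22180 genes (1 gene) passed in the mutant and 0.00902% (2 genes) in wild type. At an unadjusted p under 0.05, 6 of 10 were counted in the mutant, all of them lower, beside 5.86% of all genes (3.18% counting only lower ones), and 1 of 10 in wild type, beside 5.92%. The members had been chosen with results of these arrays known, so these counts describe the list and are not a test of it.

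Emcn, endomucin, had log2 signals of 5.99, 6.15 and 6.44 in wild-type mock and 5.67, 6.27 and 6.22 in mutant mock arrays. With NAC it gave 5.79, 5.89 and 5.62 in wild type and 5.31, 4.68 and 5.21 in the mutant. Every NAC array lay below every mock array of its genotype, and mutant NAC arrays were the lowest of all. The log2 difference was -0.99 in the mutant (1.98-fold, SE 0.20, adjusted p = 0.406, the 13th smallest p of all genes) and -0.43 in wild type (SE 0.20, adjusted p = 0.848). Without both arrays of low weight it was -1.11 in the mutant and -0.53 in wild type.

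Hlf, a transcription factor that holds stem cells in a resting state, gave 7.35, 7.87 and 7.76 in wild-type mock and 7.14, 7.25 and 7.70 in mutant mock arrays. With NAC it gave 7.16, 7.20 and 7.33 in wild type and 6.79, 7.08 and 6.89 in the mutant. As for Emcn, NAC and mock did not overlap within either genotype. The log2 difference was -0.44 in the mutant (SE 0.17, adjusted p = 0.829) and -0.43 in wild type (SE 0.17, adjusted p = 0.812). The mutant value was -0.275 without mutant mock replicate 3. Mecom, the zinc finger factor also called Evi1, differed by -0.38 in the mutant (SE 0.15, adjusted p = 0.829) and by -0.26 in wild type (SE 0.15, adjusted p = 0.874, and -0.165 without wild-type NAC replicate 1). Its mutant arrays were 5.65, 5.70 and 5.61 in mock and 5.07, 5.40 and 5.35 in NAC, without overlap, whereas its wild-type arrays overlapped. A dimmer Mecom probe set, with a mean of 3.16 under the median of all genes, differed by -0.04 in the mutant and by 0.35 in wild type. The probe sets thus had opposite signs in wild type. In the mutant the dimmer one overlapped, with 3.18, 3.06 and 3.32 in mock and 3.21, 3.11 and 3.13 in NAC arrays. With the mean of both probe sets the differences were -0.21 in the mutant, 0.045 in wild type and -0.08 over both genotypes.

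Cd34 had the smallest spread within groups. Its mutant signals were 10.49, 10.48 and 10.52 in mock and 9.87, 10.33 and 10.32 in NAC. They differed by -0.32 on the log2 scale (SE 0.14, adjusted p = 0.829), or by -0.17 without both arrays of low weight. Mutant NAC replicate 1 alone was far below the rest. In wild type the difference was -0.11 (SE 0.14, adjusted p = 0.947), or -0.17 without wild-type mock replicate 1. A Cd34 probe set shared with Gm16897 differed by -0.30 in the mutant and by 0.06 in wild type. In the mutant, Cd34, Emcn, Hlf and Mecom were thus the 4 of 10 genes with every NAC array below every mock array, beside 5.14% of all genes. In wild type these were Emcn and Hlf, 2 of 10, beside 5.32% of all genes. The separation of Mecom in the mutant held for its brighter probe set only. No marker had every NAC array above every mock array, which 5.08% of all genes had in the mutant and 5.42% in wild type.

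Among the receptors, Procr gave 5.46, 5.71 and 5.85 in wild-type mock, 5.80, 6.32 and 6.23 in mutant mock, 5.53, 5.39 and 5.23 in wild-type NAC and 5.58, 5.99 and 5.28 in mutant NAC arrays. Mutant mock had the highest mean, and each NAC group overlapped its mock group. NAC minus mock was -0.50 on the log2 scale in the mutant (SE 0.19, adjusted p = 0.829, and -0.33 without mutant NAC replicate 3) and -0.29 in wild type (SE 0.19, adjusted p = 0.886). Robo4, which takes part in the homing of stem cells to bone marrow, differed by -0.70 in the mutant (SE 0.27, adjusted p = 0.829), from 4.93, 4.52 and 5.53 to 3.98, 4.74 and 4.15. Leaving out mutant mock replicate 3 made it -0.44, and leaving out replicate 2 of that group made it -0.94. In wild type Robo4 differed by -0.21 (SE 0.27, adjusted p = 0.949), or by -0.37 without wild-type mock replicate 1. Tek differed by -0.50 in the mutant (SE 0.26, adjusted p = 0.879, and -0.325 without mutant mock replicate 3) and by -0.03 in wild type (SE 0.26, adjusted p = 0.993). Slamf1, Esam and Fgd5, all dim, had log2 differences from -0.35 to 0.14 with adjusted p from 0.872 to 0.996 in the 2 genotypes. For Slamf1 in wild type, -0.35 became -0.61 with wild-type mock replicate 1 left out and -0.07 with replicate 3 of that group left out.

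Averaged over both genotypes, a comparison added after the data were seen, NAC minus mock was -0.71 for Emcn (SE 0.14, adjusted p = 0.198), -0.44 for Hlf (SE 0.12, adjusted p = 0.401), -0.46 for Robo4 (SE 0.19, adjusted p = 0.614), -0.40 for Procr (SE 0.14, adjusted p = 0.507) and -0.32 for Mecom (SE 0.11, adjusted p = 0.501). With 6 arrays on each side no marker was free of overlap, beside 0.135% of all genes fully higher and 0.203% fully lower, and 0.00451% of all genes passed the test. Here 9 of 10 genes were lower and 6 of 10 had an unadjusted p under 0.05, beside 7.43% of all genes. Of the 11088 genes above the median level, 1248 had such a p. The mutant and wild-type differences rest on separate arrays. Of all genes, 53.3% had the same sign in both and 26.9% were lower in both. Above the median level these shares were 57.3% and 29.7%. The mutant and wild-type differences had the same sign for 9 of 10 markers, 8 of them lower in both. The difference between them was tested as an interaction, and no marker passed: Emcn had -0.56 (SE 0.28, adjusted p = 0.999), Robo4 -0.50 (SE 0.38), Slamf1 0.49 (SE 0.43) and Tek -0.47 (SE 0.37), all with the same adjusted p. At an unadjusted p under 0.05 the interaction counted 0 of 10 markers, beside 4.21% of all genes, and 0 genes in all passed.

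**Figure D2:**
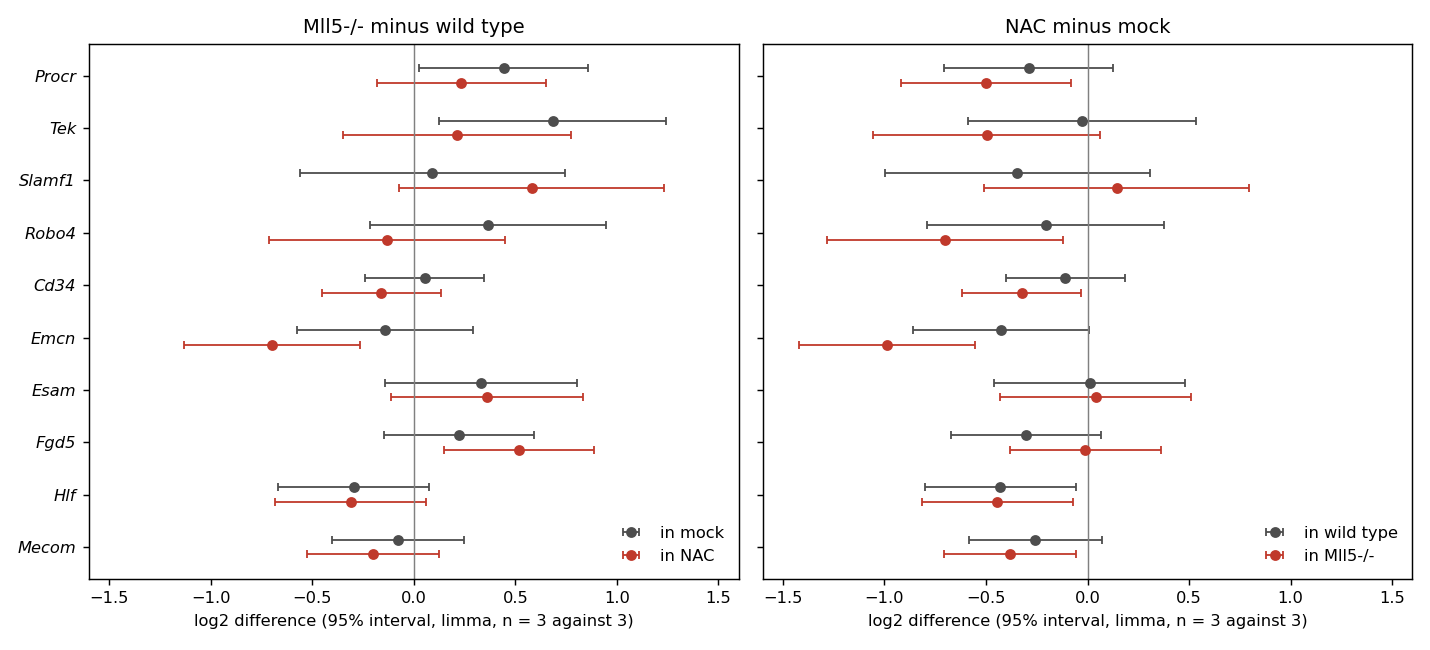
Log2 differences of the 10 markers with 95% intervals from limma (horizontal axis), mutant minus wild type in mock and in NAC on the left and NAC minus mock in wild type and in the mutant on the right. In the right panel the points of Emcn lie at -0.99 in the mutant and -0.43 in wild type, and all other points but those of Esam and of Slamf1 in the mutant lie below 0.

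Other genes of stem cells were lower with NAC as well. Of 29 measured genes of a second stem cell list, 22 were lower in the mutant and 24 in wild type, with median log2 differences of -0.13 and -0.18. None passed the test in either genotype in either direction, and over both genotypes 7 of 29 had an unadjusted p under 0.05, beside 7.43% of all genes. Of all genes, 49.8% were higher with NAC in the mutant and 49.2% in wild type, against 7 and 5 of these 29. The 7 genes with an unadjusted p under 0.05 over both genotypes, named after their values were seen, were all lower with NAC. They were Pdzk1ip1 (-0.57, SE 0.17), Eng, a co-receptor for TGF-beta (-0.42, SE 0.11), Myct1 (-0.40, SE 0.11) and Gfi1b, a repressor of the erythroid and megakaryocyte lineages (-0.37, SE 0.14). With them came Adgrg1, an adhesion receptor (-0.36, SE 0.11), Meis1, a homeobox factor (-0.35, SE 0.10), and Gata2, a zinc finger factor (-0.33, SE 0.15). Adjusted p for the 7 ran from 0.401 to 0.649. The mean signal of this list was 5.01 to 5.16 in wild-type mock, 5.05 to 5.25 in mutant mock, 4.85 to 4.96 in wild-type NAC and 4.93 to 5.06 in mutant NAC arrays, so its NAC arrays lay below its mock arrays in wild type and overlapped them narrowly in the mutant. Granulocyte and monocyte genes ran the other way: over both genotypes 10 of 13 were higher with NAC, with a median of 0.41 and none past the test, among them Ms4a3 (1.05, SE 0.30), S100a8 (0.94, SE 0.32), S100a9 (0.79, SE 0.23), Elane (0.72, SE 0.33) and Prtn3 (0.59, SE 0.22), all chosen after their values were seen. Their mean signal was 6.78 to 7.44 in wild-type mock, 6.10 to 7.17 in mutant mock, 7.32 to 7.45 in wild-type NAC and 6.90 to 7.33 in mutant NAC arrays, and Ly6g, Camp and Ngp, markers of mature neutrophils, lay under the median of all genes. Kit differed by -0.23 over both genotypes (SE 0.08, adjusted p = 0.514). The part of a change in cell mixture in the marker differences was not tested.

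Within each mock group, the array with the most granulocyte signal had the lowest mean marker signal. Wild-type mock replicate 1 had the lowest mean marker signal of its group (5.19, against 5.45 and 5.68) and the highest granulocyte mean (7.44). Mutant mock replicate 3 had the highest mean marker signal of all arrays (5.77) and the lowest granulocyte mean (6.10). The order did not hold across genotypes, as mutant mock replicate 1 (5.48 and 7.17) lay above wild-type mock replicate 2 (5.45 and 6.83) in both. In mutant NAC the order was not opposed, since replicate 1 was lowest in both (5.04 and 6.90). In wild-type NAC, replicate 2 had the highest marker mean (5.34) and the lowest granulocyte mean (7.32). Replicate 3 of that group (5.15 and 7.45) lay above replicate 1 (5.12 and 7.41) in both.

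**Figure D3:**
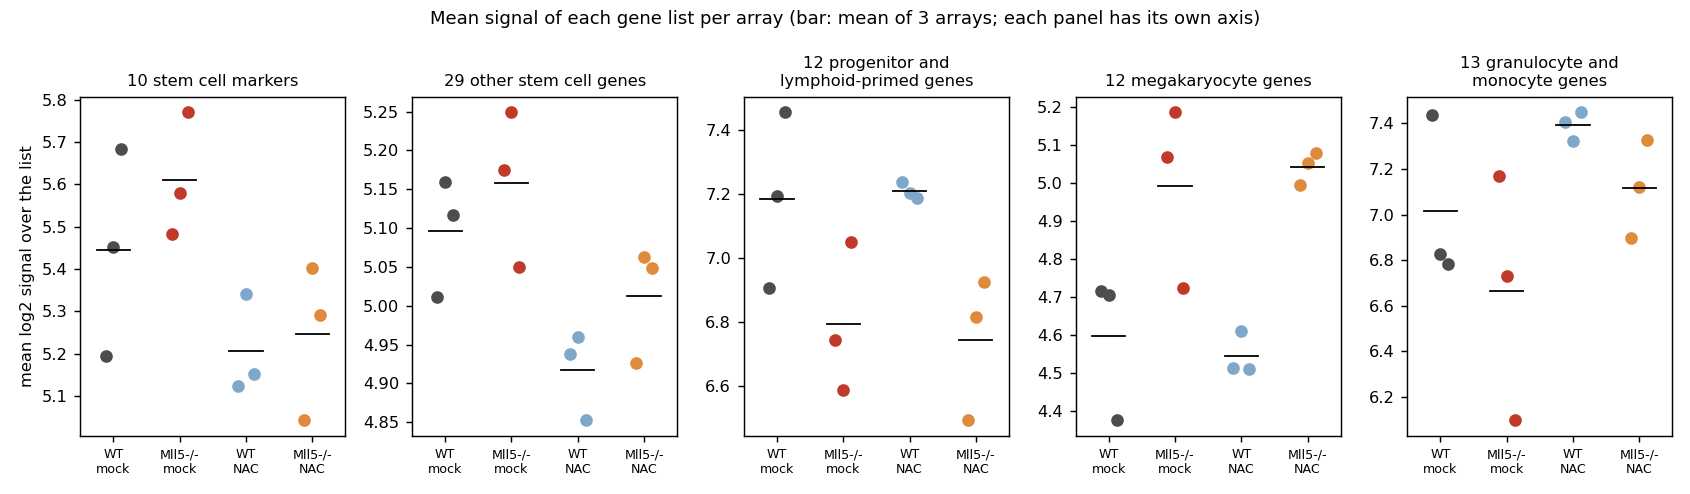
Mean log2 signal per array (vertical axis, a separate scale for each panel) of the 10 markers and of 4 comparison lists in the 4 groups, with a bar for the mean of 3 arrays. The markers and the other stem cell genes have lower means in NAC than in mock, granulocyte and monocyte genes have higher means in NAC, and megakaryocyte and lymphoid-primed genes separate mainly by genotype.

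Between mutant and wild type the markers split, with some higher and others lower in cells without Mll5. This comparison asked what loss of Mll5 changes with and without NAC. Over both treatments Tek, Fgd5, Esam, Procr and Slamf1 were higher in the mutant by 0.34 to 0.45 on the log2 scale (Slamf1 by 0.18 without mutant NAC replicate 3 and Esam by 0.23 without wild-type mock replicate 1), and Emcn and Hlf were lower by 0.42 and 0.30. No marker passed limma's test in mock, in NAC or over both, where 0.00902%, 0% and 0.00902% of all genes (2, 0 and 2 genes) passed. At an unadjusted p under 0.05 the count was 2 of 10 in mock, beside 6.63% of all genes, 2 of 10 in NAC, beside 7.17%, and 6 of 10 over both, beside 9.08%. Of the 11088 genes above the median level, 957 had such a p in mock, 1061 in NAC and 1449 over both. The median of the 10 was 0.16 in mock, 0.04 in NAC and 0.23 over both, against 0.003, 0.007 and 0.003 for all genes. The differences in mock and in NAC rest on separate arrays. They had the same sign for 8 of 10 markers (5 higher, 3 lower in both). Of all genes 55.6% had the same sign, and of genes above the median level 58.7%.

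Tek gave 3.42, 3.17 and 3.53 in wild-type mock and 3.78, 3.99 and 4.40 in mutant mock arrays, without overlap, and 2.92, 3.90 and 3.22 in wild-type NAC and 3.23, 4.02 and 3.43 in mutant NAC arrays, which overlapped. Its log2 difference was 0.68 in mock (1.61-fold, SE 0.26, adjusted p = 0.694) and 0.21 in NAC (SE 0.26, adjusted p = 0.907, and -0.02 without mutant NAC replicate 2, 0.49 without wild-type NAC replicate 2 and 0.38 without both arrays of low weight). Fgd5 gave 3.59, 3.68 and 3.88 in wild-type mock, 3.66, 3.90 and 4.26 in mutant mock, 3.29, 3.63 and 3.32 in wild-type NAC and 3.94, 4.13 and 3.72 in mutant NAC arrays. Its groups overlapped in mock and were separate in NAC. The difference was 0.22 in mock (SE 0.17, adjusted p = 0.857, and 0.06 to 0.36 without mutant mock replicate 3 or 1), 0.52 in NAC (SE 0.17, adjusted p = 0.617) and 0.37 over both (SE 0.12, adjusted p = 0.375). The mean difference of Procr was 0.44 in mock (SE 0.19, adjusted p = 0.735) and 0.23 in NAC (SE 0.19, adjusted p = 0.840), and its groups overlapped in both. The NAC value was 0.047 without mutant NAC replicate 2 and 0.40 without replicate 3 of that group.

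Esam, an adhesion molecule shared by stem cells, endothelium and platelets, gave 3.17, 3.84 and 3.92 in wild-type mock and 3.95, 3.95 and 4.02 in mutant mock arrays. The groups did not overlap, but the difference of 0.33 (SE 0.22, adjusted p = 0.836) was 0.09 without wild-type mock replicate 1. In NAC, Esam gave 3.75, 3.85 and 3.36 in wild type and 3.62, 4.10 and 4.32 in the mutant, a difference of 0.36 (SE 0.22, adjusted p = 0.778, with 0.56 and 0.21 without mutant NAC replicate 1 and 3). Slamf1 varied most within groups, with a pooled SD of 0.44 against 0.15 for Cd34, and gave 2.84, 3.35 and 3.93 in wild-type mock and 3.75, 3.42 and 3.22 in mutant mock arrays. Its difference was 0.09 in mock (SE 0.30, adjusted p = 0.978, 95% interval -0.56 to 0.74, and -0.18 without wild-type mock replicate 1) and 0.58 in NAC (SE 0.30, adjusted p = 0.728), from 2.78, 3.05 and 3.25 to 3.03, 3.56 and 4.23. The NAC value was 0.27 without mutant NAC replicate 3 and 0.87 without mutant NAC replicate 1. In mock, Tek and Esam were the 2 of 10 markers whose mutant signals all exceeded the wild-type ones, beside 5.94% of all genes. In NAC this held for Fgd5, 1 of 10, beside 6.39%. Over both treatments it held for 0 of 10 in either direction, beside 0.311% of all genes higher and 0.234% lower.

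On the other side, Emcn differed by -0.14 in mock (SE 0.20, adjusted p = 0.938), where the groups overlapped (no marker was fully lower in mutant mock, beside 5.46% of all genes), and by -0.70 in NAC (1.62-fold, SE 0.20, adjusted p = 0.547), where they did not. Hlf differed by -0.30 in mock (SE 0.17, adjusted p = 0.823) and by -0.31 in NAC (SE 0.17, adjusted p = 0.744), with overlap in mock and none in NAC. Its mock value was -0.465 without mutant mock replicate 3, -0.185 without replicate 1 of that group and -0.45 without both arrays of low weight, where that of Emcn was -0.24. These were the 2 of 10 markers with every mutant NAC array below every wild-type NAC array, beside 6.05% of all genes. Mecom differed by -0.08 (SE 0.15, adjusted p = 0.958) and -0.20 (SE 0.15, adjusted p = 0.820) in mock and NAC, or by -0.20 and -0.10 without both arrays of low weight. Its dimmer probe set differed by 0.21 (SE 0.13) in mock and by -0.18 (SE 0.13) in NAC. Cd34 differed by 0.05 (SE 0.14, adjusted p = 0.971, 95% interval -0.24 to 0.35) and -0.16 (SE 0.14, adjusted p = 0.846, interval -0.45 to 0.13). Without both arrays of low weight these were -0.0033 and -0.0083. Robo4 gave 4.31, 4.46 and 5.12 in wild-type mock against 4.93, 4.52 and 5.53 in mutant mock arrays, a difference of 0.36 (SE 0.27, adjusted p = 0.854) that became 0.10 once mutant mock replicate 3 was left out and 0.61 with replicate 3 of wild-type mock left out. In NAC the value was -0.13 (SE 0.27, adjusted p = 0.954), from 4.41, 4.38 and 4.48 to 3.98, 4.74 and 4.15, or 0.022 without mutant NAC replicate 1.

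The order of the 4 groups by mean signal also differed between markers. Emcn and Hlf ran from wild-type mock (6.19 and 7.66) through mutant mock (6.05 and 7.36) and wild-type NAC (5.77 and 7.23) to mutant NAC (5.07 and 6.92), and so did Mecom (5.73, 5.65, 5.47 and 5.27). For Emcn and Hlf the first 3 groups overlapped with their neighbours in this order, and mutant NAC stood below without overlap. Procr and Tek were highest in mutant mock (6.12 and 4.06) and lowest in wild-type NAC (5.38 and 3.35), with the remaining groups between. Fgd5 and Esam were as high in mutant NAC (3.93 and 4.01) as in mutant mock (3.94 and 3.97).

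Among partners and relatives of the markers, Tie1, the orphan receptor related to Tek, was, like Tek, higher in every mutant mock array than in every wild-type mock array. It gave 4.84, 5.79 and 5.28 in wild-type mock, 6.19, 5.96 and 6.15 in mutant mock, 5.10, 4.85 and 4.96 in wild-type NAC and 5.0, 5.71 and 5.60 in mutant NAC arrays. Mutant minus wild type was 0.80 in mock (SE 0.23, adjusted p = 0.567) and 0.47 in NAC (SE 0.23, adjusted p = 0.710). NAC minus mock was -0.66 in the mutant and -0.33 in wild type (SE 0.23 in each), where Tek had -0.50 and -0.03. F2r, the thrombin receptor through which the protein C receptor signals, differed between genotypes by 0.34 over both treatments (SE 0.11, adjusted p = 0.389) and between NAC and mock by -0.34 over both genotypes (SE 0.11, adjusted p = 0.489). Fyn, a kinase downstream of SLAM receptors, differed between genotypes by 0.30 (SE 0.15) and Slamf7 by -0.38 (SE 0.19) over both treatments. Of 40 measured genes on this list, 0 passed the test in either direction between genotypes over both treatments, 18 were higher and the median was -0.01. Over both genotypes 27 of the 40 were lower with NAC, with 0 past the test and a median of -0.06.

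In the second stem cell list, 19 of 29 genes were higher in the mutant over both treatments, with a median of 0.06 and 0 past the test in either direction. Those with the largest differences were Jam3, a junction molecule (0.36, SE 0.14), Hoxb5, a homeobox factor of long-term stem cells (0.34, SE 0.12), Ctnnal1, a catenin-like protein (0.33, SE 0.11), and Sult1a1, a sulfotransferase (0.28, SE 0.13). Genes of early progenitors and of lymphoid priming were lower for 10 of 12, with a median of -0.30 and 0 past the test. Dntt (-1.11, SE 0.22), Il7r (-0.95, SE 0.28), Rag2 (-0.95, SE 0.32) and Flt3 (-0.74, SE 0.17) had the largest differences. The mean signal of this list was 6.91 to 7.46 in wild-type mock and 6.59 to 7.05 in mutant mock, and 7.19 to 7.24 in wild-type NAC and 6.49 to 6.93 in mutant NAC arrays. Megakaryocyte genes were higher for 12 of 12 with a median of 0.37 and 1 past the test, Selp (1.48, SE 0.18, adjusted p = 0.0269), and their mean ran from 4.37 to 4.72 in wild-type mock, 4.72 to 5.19 in mutant mock, 4.51 to 4.61 in wild-type NAC and 4.99 to 5.08 in mutant NAC arrays. Pf4 (0.86, SE 0.28), Gp5 (0.57, SE 0.22) and Cd9 (0.53, SE 0.15) followed Selp, and Ppbp and Gp6 lay under the median of all genes. Pf4 differed by 0.30 in mock and by 1.41 in NAC (SE 0.39 in each). Of 14 endothelial genes, 10 were higher with a median of 0.06 and 0 past the test, and their mean ran from 3.31 to 3.49 in wild-type mock, 3.44 to 3.61 in mutant mock, 3.35 to 3.44 in wild-type NAC and 3.42 to 3.54 in mutant NAC arrays. Besides Tie1, their largest differences were those of Vwf (0.23, SE 0.10), Flt4 (0.15, SE 0.09) and Flt1 (0.12, SE 0.09). The part of these lists in the marker differences was not tested.

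B and T cell genes were lower in the mutant for 12 of 14 over both treatments, with a median of -0.11 and none past the test. Jchain (-2.78, SE 0.43), Igll1 (-0.77, SE 0.28), Blnk (-0.77, SE 0.14) and Cd79a (-0.37, SE 0.24) had the largest differences. Blnk differed by -0.10 in mock and -1.43 in NAC (adjusted p = 0.068; interaction -1.33, SE 0.27, adjusted p = 0.744), and Cd79a by -0.65 in mock and -0.09 in NAC. Of 7 erythroid genes, 6 were higher with a median of 0.14 and none past the test, led by Ermap (0.52, SE 0.22), Car1 (0.41, SE 0.34), Car2 (0.25, SE 0.11) and Epor (0.14, SE 0.09), though Car1 had -0.09 in mock and 0.91 in NAC (SE 0.48 in each). Granulocyte and monocyte genes were lower for 11 of 13, with a median of -0.18 and none past the test. S100a9 differed by -1.19 (SE 0.23) and S100a8 by -1.05 (SE 0.32), the latter by -1.61 in mock and -0.50 in NAC (SE 0.45 in each).

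Across the 12 arrays, 40 of 45 pairs of markers had a Pearson correlation above 0, with a median of 0.39. Cd34 and Mecom were the most alike, with r = 0.87 (permutation p = 0.00012, adjusted p = 0.0054 over the 45 pairs) and Spearman's rho = 0.82 (permutation p = 0.00182, adjusted p = 0.0574). Without the 2 arrays farthest from the median of Cd34 their r was 0.92, and within groups, after each group's mean was removed, it was 0.78. This was the 1 pair of 45 to pass with r, and with rho 0 passed. The permutations ignored the groups, so the p-values also take in differences shared between groups. Tek and Fgd5 had r = 0.74 (permutation p = 0.00548, adjusted p = 0.056) and rho = 0.67 (permutation p = 0.0198, adjusted p = 0.0811), with 0.80 within groups and 0.47 without the 2 farthest arrays. Procr and Fgd5 had r = 0.73 (permutation p = 0.00703, adjusted p = 0.056) and rho = 0.71 (permutation p = 0.012, adjusted p = 0.0684), with 0.70 within groups. Emcn and Hlf had r = 0.74 (permutation p = 0.00651, adjusted p = 0.056) and rho = 0.81 (permutation p = 0.00255, adjusted p = 0.0574), but 0.16 within groups, so that their likeness lay mostly between groups. Slamf1 and Esam had r = 0.70 (permutation p = 0.0114, adjusted p = 0.0641) and rho = 0.71 (permutation p = 0.0122, adjusted p = 0.0684), with 0.67 within groups. Robo4 was about as close to Cd34 (0.67), Hlf (0.62) and Mecom (0.57) as to Procr and Tek (0.64 each), and less close to Fgd5 (0.48). Emcn and Esam had the lowest value, r = -0.20. Robo4 and Esam, which lie on chromosome 9 with 2 genes between them, were not among the closest pairs.

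**Figure D4:**
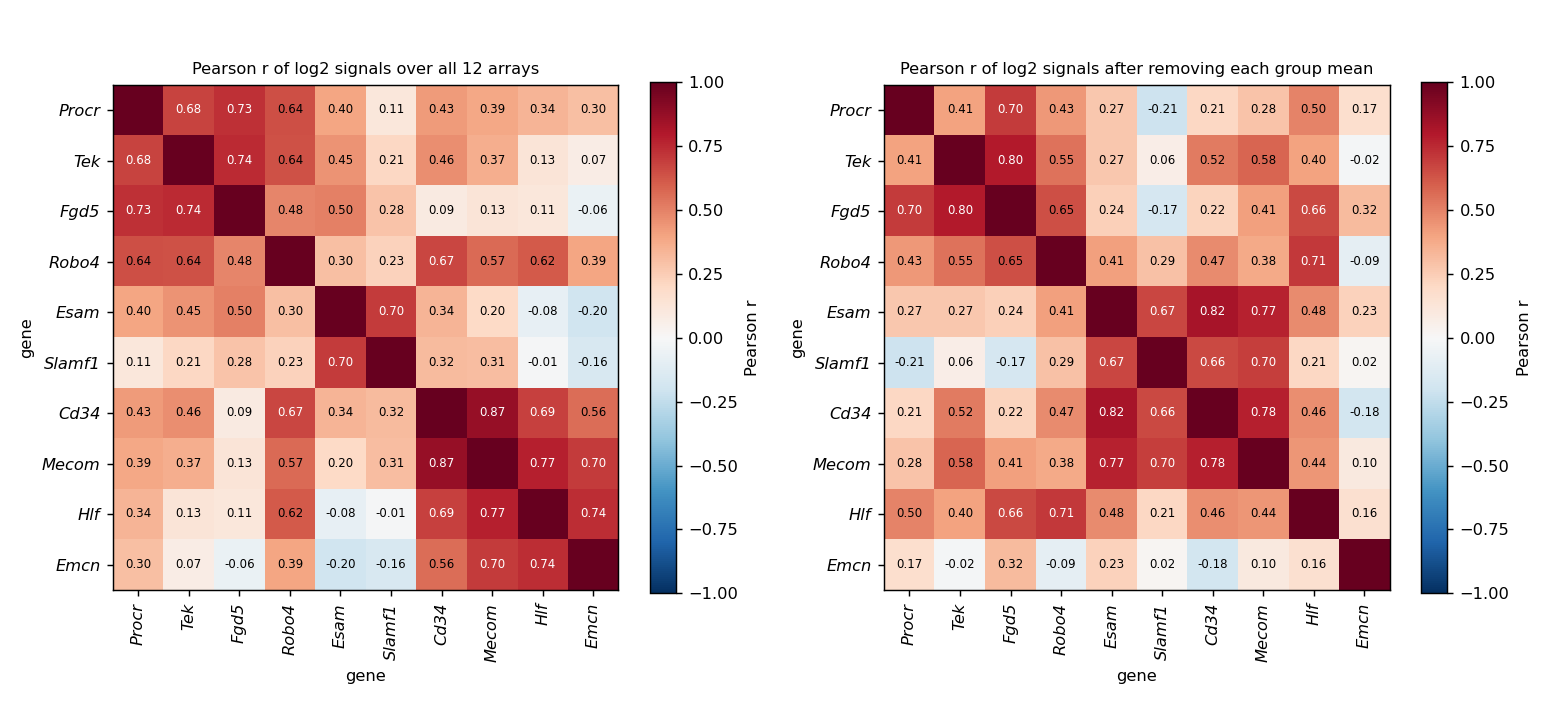
Pearson correlations of log2 signals between the 10 markers over 12 arrays (left) and after removing each group's mean (right), with genes on both axes and r in colour and figures. On the left Procr, Tek and Fgd5 are close to each other (0.68 to 0.74) and Robo4 lies near both Procr (0.64) and Cd34 (0.67), while on the right Emcn has 0.16 with Hlf and 0.10 with Mecom.

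Of the genes above the median level, leaving out predicted, clone-named and antigen receptor segment genes, 10341 were ranked by their correlation with each marker over the 12 arrays, and the highest r for a marker lay between 0.86 and 0.97. These are the highest of many and carry no test. For Cd34 they were Zfp36l2 (r = 0.97), an RNA-binding protein that promotes mRNA decay, Tfap4 (0.95) and Nbeal2 (0.95), which is needed for platelet granules. Those nearest Mecom were Irs2, an insulin receptor substrate (0.93), Adgrl4 (0.92) and Slc37a1 (0.91). Esam was closest to Casp8, an apoptotic caspase (0.93), Emcn to B9d2 (0.88), Hlf to Mctp2 (0.90) and Procr to Plxdc2 (0.89). For Tek, Ece1, the endothelin-converting enzyme, led with 0.86, and for Fgd5, Slamf1 and Robo4 it was Rabl3 (0.88), Zmat3 (0.90) and Dusp10 (0.89). The next in line had r of 0.86 to 0.90, namely Barx1 and Zfp688 for Procr, C1qtnf6 and Nanos3 for Tek, Cbx8 and Tent5a for Slamf1, Samsn1 and Cnbp for Robo4, Ssh2 and Paip2b for Emcn, Wnt4 and Otos for Esam, Smc5 and Zfp57 for Fgd5, and Camta2 and Shisa5 for Hlf.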

How the data were processed

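RNA of sorted LSK cells was hybridised to 12 Affymetrix arrays, 3 in each of 4 groups taken from the labels. The authors deposited log2 signals. The submitters' processing notes name Affymetrix Power Tools and RMA, with versions and genome build not given in the sources used here. That the logarithm has base 2 was inferred from the range of values. RMA pulls arrays to a common distribution, so a change shared by most genes would not show, and dim signals are compressed. Of 41345 probe sets, 23521 had 1 gene symbol, and 23328 of these matched the reference table by gene ID. For each of 22180 symbols the brightest was kept, with no filter. Levels are set against the median of all genes only to mark dim signals.

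Group means were estimated from all 12 arrays together in limma 3.58.1 (R 4.3.3), with Benjamini-Hochberg adjustment over all 22180 genes in each comparison. Intervals are 95%. Correlations used 100000 permutations of all 12 arrays, regardless of group. The fit was tested on simulated data. The members and gene lists were chosen with earlier results of these data known. Named list genes are the 4 largest genotype differences over both treatments, unless stated. Array weights, quantile normalization, centring, a filter on dim genes, other probe set and variance rules, a replicate block and left-out arrays were tried as alternatives. The labels do not say whether replicate numbers pair the samples, and the main fit did not pair them. Deviations from group means correlated at -0.06 to 0.06 between same-numbered arrays and at -0.08 to 0.07 between the others. Same-numbered wild-type and mutant arrays of the same treatment gave 0.005 to 0.053. These correlations cannot exclude a pairing. The number of arrays limits the precision. Figures were drawn with matplotlib 3.10.9.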

Additional observations from a re-analysis of the deposited data

How the results depend on the processing

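None of the 10 markers passed at an adjusted p under 0.05 in any of 7 comparisons under any of 21 alternatives, and the smallest adjusted p was 0.144 (Emcn, NAC minus mock over both genotypes, without mutant mock replicate 1). Of 1440 marker values under alternatives, 53 turned sign, and the cause was not tested. The values that turned include those of Mecom (-0.26) and Robo4 (-0.21) for NAC minus mock in wild type. That of Tek (0.21) between genotypes in NAC is also among the values that turned. For mutant minus wild type in mock these were Cd34 (-0.0033 under quantile normalization and without both arrays of low weight), Mecom (0.065 with the mean of its probe sets) and Slamf1 (-0.18 without both arrays). In NAC it was Robo4 (0.022 without both arrays). For NAC minus mock they were, in the mutant, Fgd5 (0.038 under quantile normalization, 0.013 with arrays centred), and in wild type Tek (0.00043 with array weights), Esam (-0.035 with array weights, -0.0033 centred, -0.23 without both arrays) and Mecom (0.045 with the mean of its probe sets). For the interaction they were Hlf (0.054 with array weights, 0.023 centred, 0.21 without both arrays) and Mecom (0.10 without both arrays).

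Leaving out each array in turn gave, for mutant minus wild type in mock, Cd34 -0.0033 to 0.082, Emcn -0.25 to 0.052, Mecom -0.20 to 0.013 and Slamf1 -0.18 to 0.37; in NAC, Robo4 -0.36 to 0.022 and Tek -0.017 to 0.49; over both, Cd34 -0.0925 to 0.0225 and Robo4 -0.019 to 0.24. For NAC minus mock in the mutant it gave Esam -0.11 to 0.24, Fgd5 -0.15 to 0.15 and Slamf1 -0.17 to 0.43, in wild type Esam -0.23 to 0.16, Robo4 -0.37 to 0.038 and Tek -0.30 to 0.19, and over both genotypes Esam -0.093 to 0.12 and Slamf1 -0.26 to 0.0425. For the interaction it gave Esam -0.12 to 0.27, Hlf -0.13 to 0.16 and Mecom -0.22 to 0.0017.

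The number of markers higher with NAC was 2 in the mutant (1 to 3 without 1 array), 1 in wild type (0 to 3 without 1 array, 0 centred and without both arrays, 2 with the mean of probe sets) and 1 over both genotypes (0 to 2 without 1 array). For the interaction it was 3 (2 to 5 without 1 array, 5 without both).

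Among all genes, 2 passed between genotypes in mock (1 with the replicate block or only the compared groups, 0 without both arrays, 1 to 4 without 1 array). In NAC 0 passed (2 with the filter on dim genes, 4 with array weights, 1 with only the compared groups, 0 to 3 without 1 array). Over both treatments 2 passed (4 with array weights or without both arrays, 1 with the replicate block, 1 to 7 without 1 array). Between NAC and mock 1 passed in the mutant (2 with array weights or quantile normalization, 0 without both arrays, 0 to 2 without 1 array), 2 in wild type (1 with only the compared groups, 1 to 5 without 1 array) and 1 over both genotypes (3 without both arrays, 1 to 4 without 1 array). In the interaction 0 passed (0 to 2 without 1 array). The replicate block changed no other count by over 1.5 times.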
